A study of Mus musculus with 12 samples.

Results

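The genes of the cytosolic ribosome are described here in primary mouse astrocytes with and without a conditional deletion of Rack7, the gene that the count table lists as Zmynd8 and that encodes a chromatin reader. The genes were taken by name: all symbols of the Rpl and Rps series, Rplp0 to Rplp2 and Rpsa, without the S6 kinases and without symbols that carry the pseudogene mark -ps. The rule took 86 of the 18903 genes in the table. Of these, 46 encode proteins of the large (60S) subunit, the 3 stalk genes included, and 31 encode proteins of the small (40S) subunit; these 77 are called core genes below. A further 4 are paralogs or ribosomal-protein-like genes (Rpl7l1, Rpl22l1, Rpl39l and Rps27l), and 5 are pseudogenes by the table's own gene type although their names lack the mark (Rpl32l, Rpl6l, Rps3a2, Rps3a3 and Rps4l). All 86 passed the filter on low counts, and 85 had at least 1 count in every library.

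The cKO cultures came from hGFAP-cre::Rack7 fl/fl mice and the WT cultures from hGFAP-cre::Rack7 +/+ mice, so both groups carried the Cre driven by the human GFAP promoter, which is active in neural progenitors as well as in astrocytes. Astrocytes were taken from the brains of mice of both sexes on postnatal day 1, 6 or 8 (P1, P6 and P8), freed of meninges, grown in culture and shaken to detach microglia and oligodendrocyte-lineage cells. RNA-seq covered 12 libraries, 2 for each genotype at each time point. The labels call the 2 libraries of a group biological replicates without naming animals or litters, so the p-values measure the spread between these libraries only, and the time point of isolation cannot be told apart from the batch of culture.

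Each ribosome is assembled from ribosomal RNA and about the same number of copies of every ribosomal protein. The 60S subunit holds the peptidyl transferase centre and the 40S subunit reads the mRNA. Mammalian ribosomal protein mRNAs start with a terminal oligopyrimidine (TOP) tract, through which mTOR signalling and LARP1 set their translation and stability, and their genes are transcribed in all cell types at high rates, most of all in growing cells. Their introns host many small nucleolar RNAs, and the genome holds a large number of processed pseudogenes derived from them.

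The library totals ran from 54413504 to 89183250 counts. Zmynd8 itself was higher in every library labelled cKO (at P1 213 and 216 CPM beside 136 and 136 in WT; at P6 242 and 230 beside 114 and 116; at P8 160 and 171 beside 100 and 104). CPM here and below is a count relative to the library total, scaled by the TMM method. A count over the whole gene does not show the excised exons, so WT and cKO below stand for the libraries so labelled. The study reports loss of the protein in the cKO brain by immunoblot, and it also probed WT and cKO astrocytes in this way. In astrocytes it reports far fewer sites of RACK7 binding on chromatin in cKO than in WT. None of these data were analysed here. Summed markers of the cell types named next were detected in all groups and differed between them. A single marker could be absent: the fibroblast gene Lum was at 0.0 CPM in both P6 cKO libraries. The summed level of 9 astrocyte markers lay between 1400 and 2250 CPM in 5 groups and between 687 and 702 in the P8 cKO libraries. At P8, 7 of the 9 were lower in cKO and 1, Aldh1l1, was higher (0.49 on the log2 scale). The 7 microglial markers summed to 2590 to 2610 in P1 WT and 1990 to 2080 in P1 cKO, to 1790 to 1820 and 1830 to 1890 at P6, and to 2320 to 2370 and 3460 to 3470 at P8. The 4 neuronal markers in the table summed to 183 to 218 in P6 WT and 400 to 403 in P6 cKO, and to 120 to 140 in P8 WT and 264 to 276 in P8 cKO, with 2 of the 4 higher in cKO at both. The 6 fibroblast markers summed to 398 to 412 CPM in P1 WT and 2450 to 2480 in P1 cKO. They reached 6630 to 6680 in P6 WT beside 2510 to 2680 in P6 cKO, and 25600 to 25800 in P8 WT beside 8180 to 8430 in P8 cKO. In bulk RNA a change in the number of cells of a type cannot be told apart from a change of RNA per cell, and the part of these markers in the results below was not tested.

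Since a pyrimidine tract at the transcription start is what gives TOP mRNAs their name, pyrimidine runs were looked for around the annotated starts. RefSeq promoter windows (GRCm38.p6, 250 bases before to 50 bases after the annotated start) were matched by symbol to 62 of the 86 genes. A run of at least 8 pyrimidines (C or T) on the transcribed strand, reaching within 50 bases of the annotated start, was present in 51 of the 62, or 82.3%, against 37.7% of the 27025 genes in the same set of windows. The longest such run held the annotated start base, or began 1 base after it, in 16 of the 51 genes. In the other genes the longest run lay apart from the annotated start and is not a TOP tract by position. Shorter runs at the start of those genes were not recorded. Of the 16, those of 6 genes to which the results return are printed, with the run in capitals and 4 flanking bases on each side. They are Rpl22l1 (chr3:28805505-28805522, + strand), Rpl28 (chr7:4792958-4792976, +), Rpl35 (chr2:39005117-39005142, -), Rplp2 (chr7:141447642-141447659, +), Rps6 (chr4:86857355-86857372, -) and Rps27 (chr3:90213638-90213654, -).
Rpl22l1: cccgTTCTCTTCCCacgg
Rpl28: cgtgTCTCTCTTTCCgtct
Rpl35: cccgCCCTTTCCTCTTTCTCTCgaac
Rplp2: agcgTCTTCCTTTCgccg
Rps6: cgggCCTCTTTTTCgtga
Rps27: ttcgCTCCTTTCCggcg
Counted from the annotated start as position 0, the runs began at 1, -3, -7, -5, -1 and -2 in this order. The longest runs ranged from 8 to 23 bases over the 51 genes. In the whole window and on both strands, the ETS-type motif CCGGAAG occurred in 40.3% of the 62 genes and 9.12% of all genes. The E-box CACGTG, on both strands, occurred in 8.06% and 7.24%, and TATAAA on the transcribed strand in 11.3% and 8.88%. A match describes letters in a window and not a bound site. A run was present in genes that responded to genotype and in genes that did not: at P6, 37 of 51 genes with a run and 11 of 11 without one were lower in cKO, with median log2 fold changes of -0.34 and -0.39. As only 16 of the 51 runs lie at the start, this split does not separate genes with a TOP tract from genes without one.

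The ribosomal protein genes together took between 1.35% and 2.11% of the counts of a library. In WT the share was 1.66% and 1.67% in the P1 libraries, 1.79% and 1.92% in those of P6, and 2.11% and 2.09% in those of P8. In cKO the P1 libraries held 1.53% and 1.57%, the P6 libraries 1.46% and 1.35%, and the P8 libraries 1.79% each. Both cKO libraries lay below both WT libraries at each time point, and the distance was largest at P6, with 1.85% ± 0.0919 (SD, n = 2) in WT and 1.41% ± 0.0778 in cKO. With 2 libraries against 2, an exact permutation test of such a share cannot go below p = 0.333, and none was used. The 60S and 40S shares moved in the same direction, and the ratio of 60S to 40S counts stayed between 1.41 and 1.53 in the 12 libraries. Within this range the ratio was higher in cKO at P6 (1.53 and 1.5, beside 1.41 and 1.46 in WT). It was also higher in cKO at P8 (1.5 and 1.49, beside 1.44 and 1.47), so the 40S share was lowered somewhat more than the 60S share. At P1 the genotypes overlapped (1.49 and 1.52 in cKO, 1.5 and 1.48 in WT). The difference in the ratio was not tested.

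**Figure D1:**
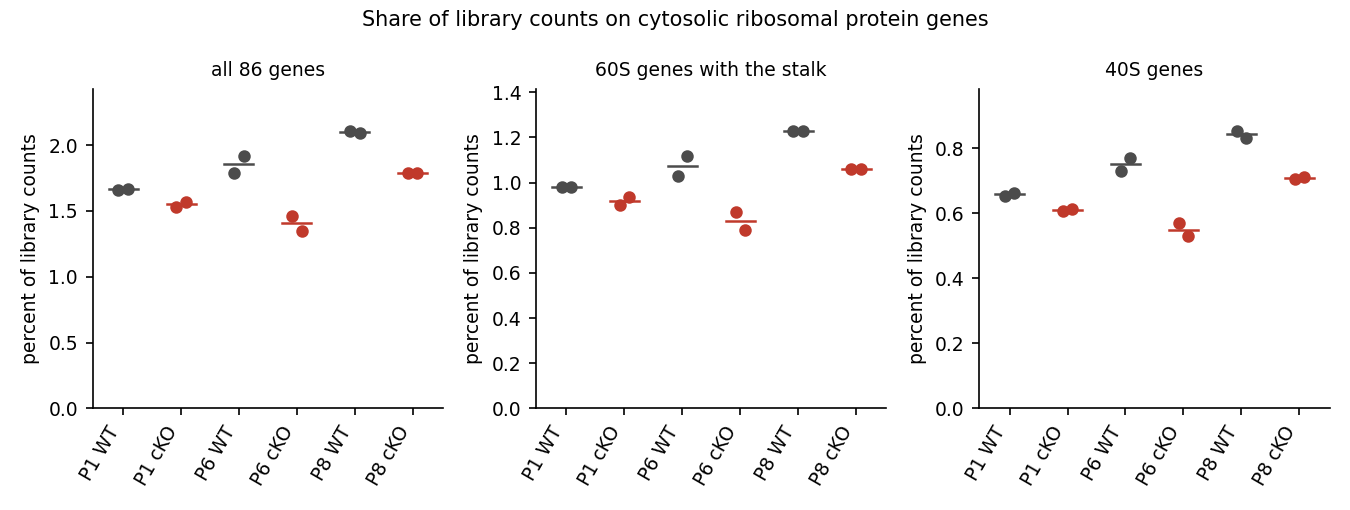
Percent of library counts on all 86 ribosomal protein genes, on the 60S genes with the stalk and on the 40S genes, for each library (points) and group mean (bars), grey for WT and red for cKO. For all 86 genes the P6 cKO libraries, at 1.46% and 1.35%, are the lowest and the P8 WT libraries, at 2.11% and 2.09%, the highest.

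Rpl4, a 60S protein near the exit tunnel, had the highest mean level of the set, 692 CPM, followed by the stalk protein gene Rplp0 (652), the laminin-receptor-like 40S protein gene Rpsa (494), Rps3a1 (450) and Rpl3 (442). Per kilobase of transcript the order differed: Rpl41, which encodes the smallest ribosomal protein, led with 646 CPM per kilobase, and the core gene with the lowest value was Rps20 at 42.1, for which the chosen transcript model is long. The paralog and pseudogene-type genes were spread widely. Rps27l at 167, Rpl7l1 at 62.1, Rpl22l1 at 56.5 and Rpl6l at 43.2 CPM per kilobase lay above Rps20, while Rps3a2 at 14.7, Rps4l at 14.3, Rps3a3 at 8.8, Rpl32l at 2.64 and Rpl39l at 1.12 lay below every core gene.

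At P1, few genes passed the test between genotypes. Rps27 was higher in cKO and Rps13 lower, and the other 84 did not pass the edgeR quasi-likelihood test at an adjusted p of 0.05. Across all 17938 genes tested, 6.65% were higher and 3.04% lower in the same comparison. The median log2 fold change of the 86 genes was -0.08 (quartiles -0.14 and -0.03), and 71 of the 86 values were negative, beside a median of 0.00 over all genes tested. In 45 genes both cKO libraries lay below both WT libraries, or 52.3% of the set, a state that held for 25.4% of all genes tested, and the reverse held for 2 genes of the set (25.8% of all genes tested). At an unadjusted p below 0.05, 1 gene was higher and 13 were lower, and DESeq2 called 1 and 9. With a fold of 1.5 as well, none of the 86 was called in either direction, by the adjusted p (4.0% higher and 0.881% lower over all genes tested) or by the unadjusted p (6.23% and 2.4%). The count at P1 depended on the processing: with trends of fold change with GC content and transcript length removed, 1 gene was higher and 25 were lower, with a median of -0.16, and with the replicate number as a block as well, 1 and 23.

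Rps27, a zinc-finger protein of the 40S subunit, was at 53.9 and 53.3 CPM in the P1 WT libraries and at 67.4 and 78.9 in P1 cKO. The groups did not overlap, and the log2 fold change was 0.45 ± 0.0828 (SE; adjusted p = 0.00753), although without P1 cKO replicate 2 the adjusted p was 0.0539. Rps13, which encodes a further 40S protein, was at 98.4 and 86.6 in WT and 72.3 and 75.3 in cKO, a log2 fold change of -0.33 ± 0.0725 (adjusted p = 0.0189). Without P1 cKO replicate 1 no gene of the set was lower, and without either P6 cKO library, which enter only the common estimate of the spread, 5 were. Other values at the ends of the range did not pass: Rpl29 -0.59 (95% interval -2.74 to 1.57), Rpl39l -0.39 (-2.55 to 1.76), Rps21 -0.36 ± 0.115 (adjusted p = 0.0906), Rpl32l 0.18 ± 0.415 and Rps20 0.17 ± 0.212.

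At P6, most genes of the set were lower in cKO. The test called 62 of the 86 lower and 1 higher, against 12.6% and 13.2% of all genes tested. The median log2 fold change was -0.34 (quartiles -0.43 and -0.26), which is 21.2% lower, and 83 of the 86 values were negative. Among core genes, 33 of 46 of the 60S subunit fell, with a median of -0.33, and 26 of 31 of the 40S subunit fell, with a median of -0.41. In 75 genes, or 87.2% of the set, both cKO libraries lay below both WT libraries, against 29.3% of all genes tested, and in 2 genes the reverse held (29.7%). The difference was broad and shallow: 4 of the 62 were lower by 1.5-fold or more (Rps20, Rpl22l1 and Rps25 among them), where 6.32% of all genes tested were, and the count by an unadjusted p below 0.05 with that fold was also 4, where 7.74% were. None was higher by that fold under either rule, against 7.12% and 8.81% of all genes tested.

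Leaving out a library of the comparison left between 50 and 60 genes lower, and 46 of the 62 stayed lower under each of the 21 other settings tried. The P6 WT libraries also had the higher proliferation markers (6 genes summing to 697 to 742 CPM in WT and 510 to 538 in cKO, 4 of 6 lower), and the fibroblast markers were all lower in P6 cKO. At P1 the proliferation markers summed to 668 to 695 in WT and 545 to 560 in cKO (0 of 6 higher, 2 lower). At P8 the sums were 483 to 486 in WT and 502 to 510 in cKO (2 of 6 higher, 2 lower). The part of these markers in the result was not tested.

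Rpl4 was at 743 and 741 CPM in P6 WT and at 565 and 531 in P6 cKO, so that every cKO library lay well below every WT library. Its log2 fold change was -0.44 ± 0.0342 (adjusted p = 8.7e-06), the smallest adjusted p between genotypes at P6 among the genes of the set named here. Rps3a1, a protein of the 40S platform, was at 473 and 488 in WT and 364 and 345 in cKO, also -0.44 ± 0.0368 (adjusted p = 1.4e-05). Rpsa fell from 528 and 540 to 425 and 390, by 0.39 ± 0.0415 on the log2 scale (adjusted p = 7.52e-05). None of these 3 calls was lost under any of the 21 other settings.

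Rps6, the 40S protein that S6 kinase phosphorylates, was at 352 and 367 CPM in P6 WT and 301 and 272 in P6 cKO (-0.33 ± 0.0468, adjusted p = 0.000534). Rpl5, which with Rpl11 and 5S RNA can bind MDM2, was at 339 and 348 against 299 and 294 (-0.21 ± 0.0331, adjusted p = 0.000895). Rpl11 was at 191 and 202 against 158 and 144, a like difference of -0.38, but with an SE of 0.205 from its spread in the other groups it did not pass (adjusted p = 0.236). Rpl3, next to the peptidyl transferase centre, was lower by -0.31 ± 0.0533 (adjusted p = 0.00175). The stalk genes, whose products recruit elongation factors, were all lower, with -0.31 ± 0.0604 for Rplp0, -0.30 ± 0.0821 for Rplp1 and -0.34 ± 0.0726 for Rplp2 (adjusted p = 0.00362, 0.0238 and 0.00591). The call of Rplp1 was lost without P6 WT replicate 2 (adjusted p = 0.137) and without P6 cKO replicate 2 (0.121).

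Rpl19, a 60S gene for which the study lists primers of its quantitative PCR, was also among the genes that fell. It was at 324 and 344 CPM in P6 WT and at 268 and 241 in P6 cKO (log2 fold change -0.39 ± 0.0524, adjusted p = 0.000353), and it did not pass at P1 (-0.07 ± 0.0523, adjusted p = 0.545) or at P8 (-0.07 ± 0.0522, adjusted p = 0.345). Other genes with the same course were Rps24 and Rpl35, at -0.27 ± 0.0425 and -0.27 ± 0.0523 at P6 (adjusted p = 0.00105 and 0.00365).

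The widest gaps at P6 were those of Rps20, a protein of the 40S head, and Rpl22l1, described with its partner further on. Rps20 was at 185 and 210 CPM in WT and 103 and 96.3 in cKO, a log2 fold change of -0.99 ± 0.214 (adjusted p = 0.0125). Its call did not hold without P6 WT replicate 2 (adjusted p = 0.0643), P6 cKO replicate 1 (0.0597) or P6 cKO replicate 2 (0.0802), and the fold stayed between -1.07 and -0.90. Rps25, a 40S protein used by internal ribosome entry, was at 162 and 118 against 95.7 and 87.9 (-0.61 ± 0.187, adjusted p = 0.048) and lost its call under 14 of the 21 other settings, with an adjusted p of up to 0.236.

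The genes of the set that were not called at P6 were mostly ones with a wide spread between replicates. Rpl41 was at 181 and 372 CPM in P6 WT and 324 and 288 in P6 cKO, and between 165 and 414 over all 12 libraries, with replicates of P1 WT at 342 and 180. Rpl29, a small 60S protein, was between 36.9 and 102 in 11 libraries and at 4.83 in P8 WT replicate 2, which makes its P8 value of 1.00 ± 1.11 one that rests on that library; without it the log2 fold change at P8 was 0.08. Rps10 (-0.26 ± 0.199), Rpl17 (-0.45 ± 0.233) and Rpl7 (-0.30 ± 0.136) were negative at P6 and did not pass. Genes with a small spread that stayed near their WT level were fewer: Rpl22 was at 144 and 134 in WT and 143 and 133 in cKO (-0.01 ± 0.0851, 95% interval -0.18 to 0.16), and Rpl39 at 97.7 and 105 against 93.2 and 91.9 (-0.13 ± 0.0600, adjusted p = 0.145). Rps27a, which is made as a fusion with ubiquitin, was at -0.25 ± 0.0884 (adjusted p = 0.0702), and Rps21 at -0.20 ± 0.114 (adjusted p = 0.259).

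**Figure D2:**
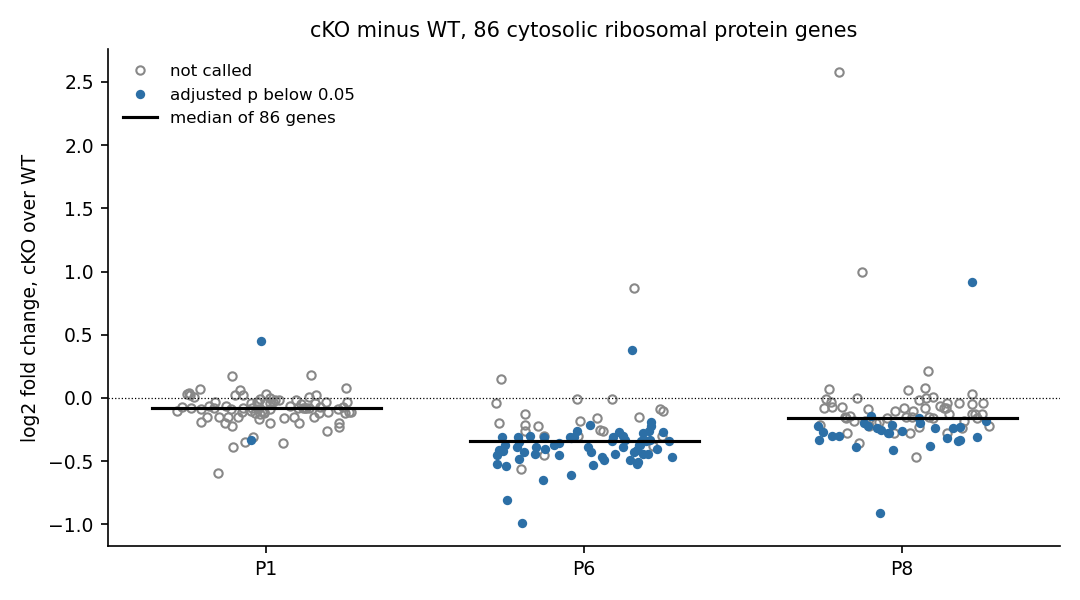
Log2 fold change of each of the 86 genes, cKO over WT, at P1, P6 and P8, with filled points for an adjusted p below 0.05 and a bar at the median. The medians are -0.08, -0.34 and -0.16, and at P6 all but 3 points lie below 0.

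At P8, fewer genes differed and the difference was smaller. The test called 28 lower and 1 higher, against 14.8% and 19.5% of all genes tested, with 13 of the 28 from the 60S subunit and 14 from the 40S subunit. The median log2 fold change was -0.16 (quartiles -0.25 and -0.08), which is 10.6% lower. In 67 genes both cKO libraries lay below both WT libraries, or 77.9% of the set, against 33.8% of all genes tested, and in 4 genes the reverse held (36.9%). Of the 28, only Rpl22l1 was lower by 1.5-fold or more, where 8.33% of all genes tested were, and Rps4l was the gene higher by that fold (11.0%). The unadjusted p with that fold gave 1 gene lower and 2 higher, against 9.59% and 12.5%. Without either P8 cKO library, 18 genes were lower, and 17 stayed lower under each of the 21 other settings. When trends of fold change with GC content and transcript length were removed, 52 genes passed at P8 and the median was -0.25.

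Rpl5 was among the core genes that fell at P8, at 496 and 503 CPM in WT against 412 and 410 in cKO (-0.28 ± 0.0330, adjusted p = 8.96e-05). Rps3a1 had the smallest adjusted p of the genes lower at P8, at 611 and 607 against 481 and 494 (-0.32 ± 0.0367, adjusted p = 7.71e-05), and Rpl4 at 871 and 865 against 760 and 770 (-0.18 ± 0.0341, adjusted p = 0.00218). In all 3, the cKO libraries lay below the WT libraries. Rpl28, another 60S gene, was at 304 and 285 against 223 and 220 (-0.41 ± 0.0920, adjusted p = 0.00646), after 236 and 226 against 184 and 144 at P6 (-0.49 ± 0.0922, adjusted p = 0.00334). Rpl3 was again lower (-0.26 ± 0.0532, adjusted p = 0.00324), and so was Rps6 by a small step of -0.14 ± 0.0467 (adjusted p = 0.0439) that was lost under 10 of the 21 other settings. The stalk genes were at -0.09, 0.00 and -0.02 for Rplp0, Rplp1 and Rplp2 and did not pass.

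Over the 3 time points, 27 genes were lower at both P6 and P8, 35 at P6 and not at P8, and 1 at P8 and not at P6. The exception was Rpl39, a short protein of the exit tunnel, at 137 and 128 CPM in P8 WT and 104 and 99.4 in P8 cKO (-0.38 ± 0.0600, adjusted p = 0.000714). Rps13 was the gene called lower at all 3 time points, with -0.53 ± 0.0725 at P6 (110 and 124 against 79.7 and 82.9 CPM, adjusted p = 0.000424) and -0.21 ± 0.0721 at P8 (150 and 154 against 129 and 133, adjusted p = 0.0429). A further 22 genes were called at no time point. These comparisons use different libraries at each time point, and whether the genotype difference itself changed was tested apart, as given below.

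**Figure D3:**
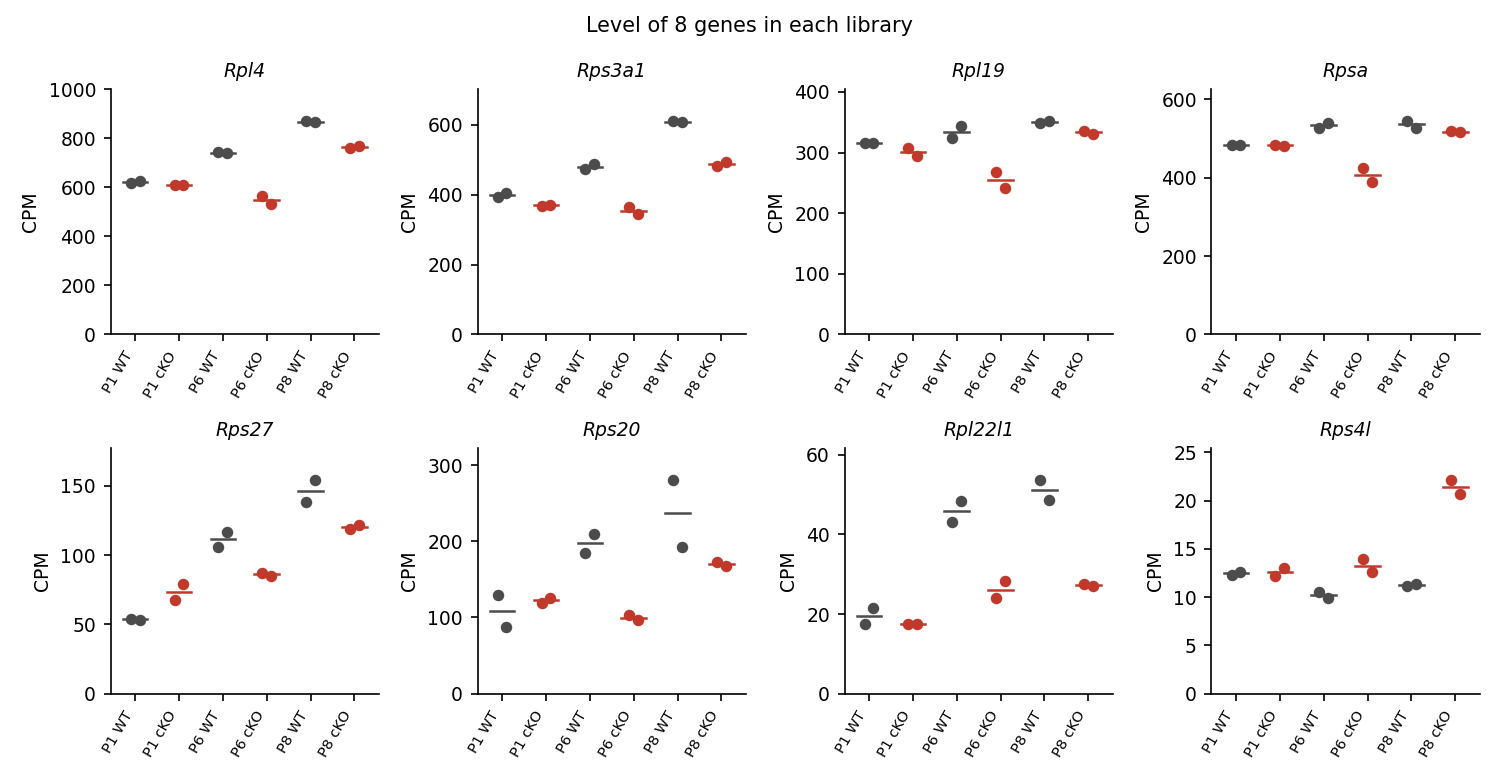
CPM in each library (points) with the group mean (bars), grey for WT and red for cKO, for 8 genes. Rpl4, Rps3a1, Rpl19 and Rpsa dip in P6 cKO, Rps27 turns from higher in cKO at P1 to lower at P6 and P8, Rpl22l1 is lower in cKO at P6 and P8, and Rps4l is higher there.

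In WT, the level of the set rose at each step. In the first step, from P1 to P6, 51 of the 86 rose and 3 fell, against 20.8% and 19.3% of all genes tested, with a median log2 fold change of 0.29. In the second step, 34 rose and none fell by the edgeR test, against 16.1% and 19.1%, with a median of 0.19; at an unadjusted p below 0.05, 2 were lower, and DESeq2 called 2 lower. In cKO the first step was split and the second was large. The first step held 15 genes that rose and 11 that fell (19.6% and 18.7% of all genes tested), with a median of 0.00 on the log2 scale. In the second, 68 rose and none fell (19.8% and 19.1%), with a median of 0.41, and 0 were lower also at an unadjusted p below 0.05 and by DESeq2. Without P1 cKO replicate 1 the split of the first cKO step was 8 higher and 10 lower, and without P6 cKO replicate 1 it was 5 and 17. When libraries were scaled by their totals alone it was 4 and 29, so the direction of this step depends on the scaling and on single libraries. With a fold of 1.5 or more, the first and second WT steps held 7 and 3 genes that rose, against 12.2% and 8.53% of all genes tested, and the cKO steps 1 and 10, against 10.8% and 11.6%. None fell by that fold in any of the 4 steps, where 10.8% and 10.2% of all genes tested did in WT and 10.3% and 12% in cKO. By the unadjusted p with that fold, 7 and 3 rose in WT (13.3% and 10.3%) and 2 and 10 in cKO (12.2% and 12.9%), and none fell (12% and 11.3% in WT, 11.5% and 13.4% in cKO).

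Rps27 rose the most of the core genes in WT from P1 to P6, by 1.05 ± 0.0834 on the log2 scale (adjusted p = 4.19e-06), and rose in cKO by 0.24 ± 0.0826 (adjusted p = 0.0467). Rps20 rose in WT by 0.87 ± 0.213 (adjusted p = 0.0143). Rps21 rose in both genotypes over this step, by 0.61 ± 0.114 in WT and 0.77 ± 0.115 in cKO (adjusted p = 0.00178 and 0.000447). In the other direction, Rps24 fell in both, by 0.29 ± 0.0425 in WT and 0.45 ± 0.0426 in cKO (adjusted p = 0.000395 and 1.96e-05), and Rpl35 by 0.21 ± 0.0522 and 0.47 ± 0.0524 (adjusted p = 0.00844 and 6.03e-05).

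From P6 to P8, Rpl5 rose by 0.54 ± 0.0331 in WT and 0.47 ± 0.0331 in cKO (adjusted p = 9.45e-07 and 1.63e-06), and Rps6 by 0.39 ± 0.0467 and 0.58 ± 0.0468 (adjusted p = 0.000117 and 4.52e-06). Rpl17 had the widest step of the core genes in cKO, 0.96 ± 0.234 (adjusted p = 0.0137), from 78.4 and 66.9 CPM to 171 and 111, which differ widely from each other. Rpl22 and Rps27l were among the few with negative values in cKO, -0.06 and -0.17, and did not pass. Rps10 was at -0.21 ± 0.199 in WT.

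**Figure D4:**
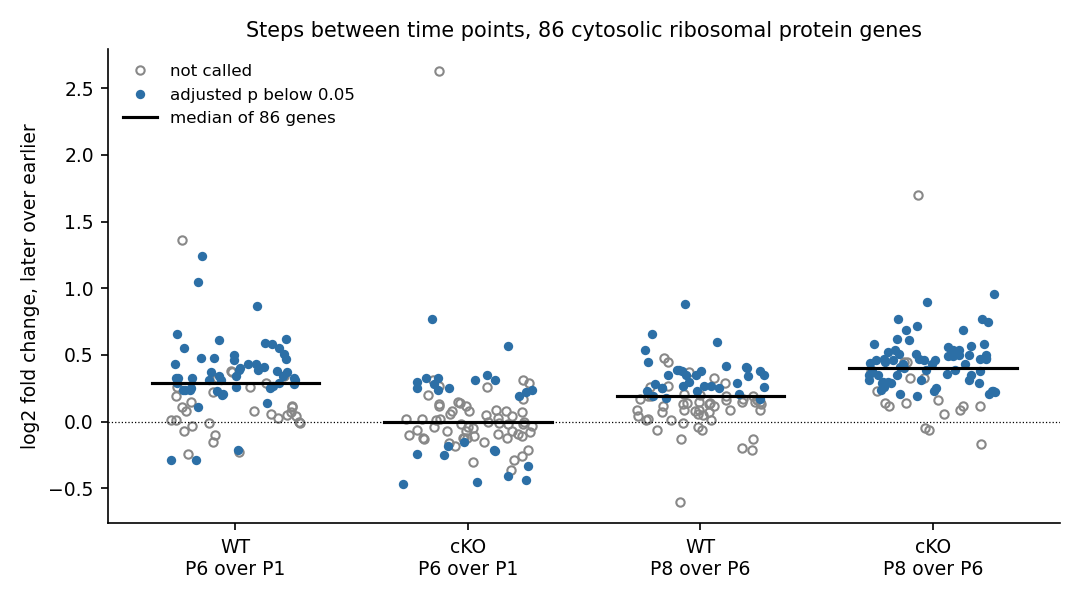
Log2 fold change of each of the 86 genes from P1 to P6 and from P6 to P8 within WT and within cKO, with filled points for an adjusted p below 0.05 and a bar at the median. The medians are 0.29 and 0.19 in WT and 0.00 and 0.41 in cKO.

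The test of the genotype difference between time points gave the same course. From P1 to P6 the difference became more negative in 28 genes and more positive in none, against 8.27% and 7.15% of all genes tested, with a median change of -0.26; at an unadjusted p below 0.05 it became more positive in 1, and also in 1 by DESeq2. From P6 to P8 it became more positive in 18 genes and more negative in none, against 12.7% and 8.98%, with a median change of 0.20, and it became more negative in 1 gene at an unadjusted p below 0.05 and in 1 by DESeq2. The second count depended on single libraries: it was 32 without P6 cKO replicate 1, and 7 or 8 without P6 WT replicate 2, P6 cKO replicate 2, P8 WT replicate 2 or either P8 cKO library.

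Rps27 changed sign. Its genotype difference went from 0.45 at P1 to -0.37 ± 0.0825 at P6 (106 and 117 against 87.2 and 84.9 CPM, adjusted p = 0.00784), a change of -0.82 ± 0.117 (adjusted p = 0.000965), and was -0.28 ± 0.0823 at P8 (138 and 154 against 119 and 122, adjusted p = 0.0259). The P6 call was lost without P6 WT replicate 2 (adjusted p = 0.0562), and the P8 call without P8 WT replicate 2 (0.194) or either P8 cKO library (0.121 and 0.0843). Rpl4 changed by -0.41 ± 0.0482 at the first step (adjusted p = 0.000268) and by 0.26 ± 0.0482 at the second (adjusted p = 0.00386). Rpsa returned nearly as far as it had gone, with -0.39 ± 0.0586 and 0.34 ± 0.0586 (adjusted p = 0.00141 and 0.00233). Its P8 levels of 545 and 528 in WT and 519 and 517 in cKO did not differ by the test (-0.05 ± 0.0414, 95% interval -0.13 to 0.03).

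Paralogs that can take the place of a core protein in the ribosome did not always move with their partner. Rpl22l1, the paralog of Rpl22, was at 17.4 and 21.4 CPM in P1 WT and 17.6 and 17.5 in P1 cKO. In the P6 libraries it stood at 43.1 and 48.5 in WT and 24.0 and 28.2 in cKO, and in the P8 libraries at 53.6 and 48.6 in WT and 27.6 and 27 in cKO. The groups overlapped at P1 and lay apart at P6 (-0.81 ± 0.118, adjusted p = 0.00059) and P8 (-0.91 ± 0.118, adjusted p = 0.000187), and both calls held under all 21 other settings. It rose from P1 to P6 by 1.24 ± 0.119 in WT (adjusted p = 1.83e-05) and by 0.57 ± 0.119 in cKO (adjusted p = 0.00358). Rpl22 did not pass at any time point, with 0.04 ± 0.0852 at P1, -0.01 ± 0.0851 at P6 and -0.20 ± 0.0851 at P8 (147 and 158 against 132 and 133 CPM, adjusted p = 0.0933). The difference between the paralogs was not itself tested.

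Rps4l, a pseudogene-type gene related to the X-linked Rps4x, went against the set. It was at 12.3 and 12.6 CPM in P1 WT and 12.2 and 13.0 in P1 cKO. The P6 libraries gave 10.5 and 9.87 for WT and 13.9 and 12.6 for cKO, and the P8 libraries 11.1 and 11.4 for WT and 22.1 and 20.7 for cKO. The genotypes lay apart at P6 and P8, with log2 fold changes of 0.38 ± 0.0981 at P6 (adjusted p = 0.016), where the call was lost under 5 of the 21 other settings, P6 libraries left out among them, with an adjusted p of up to 0.106, and 0.92 ± 0.0981 at P8 (adjusted p = 4.54e-05), where it was not lost. Rps4x was lower at both, by -0.26 ± 0.0441 and -0.27 ± 0.0441 (adjusted p = 0.00147 and 0.000882). Reads of a pseudogene and of its parent share most of their sequence, and the sources used here do not say how reads that fit both were counted, nor whether strand was used. Rps4l lies on the opposite strand within Tmtc1, which was far lower in cKO (102 and 91.3 beside 13.2 and 15.7 CPM at P6, and 318 and 330 beside 23.5 and 19.6 at P8), so reads of this pair cannot be told apart where they overlap, and the part of Tmtc1 in the Rps4l values was not tested. Rpl22l1 likewise overlaps an antisense gene, Gm33051, which was not analysed here.

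Rpl39l, a paralog of Rpl39 known from the testis, was near the limit of detection, at 0 and 0.258 CPM in P1 WT and at most 2.77 in any library. In P8 it was at 0.37 and 0.332 in WT and 1.43 and 2.77 in cKO, which lay apart without passing the test (2.58 ± 0.945, adjusted p = 0.0609). Rps27l, the p53-responsive paralog of Rps27, was at -0.10 ± 0.115 at P6 and -0.24 ± 0.115 at P8 (adjusted p = 0.147), and Rpl7l1, a relative of Rpl7 found in precursors of the 60S subunit, at -0.22 ± 0.0664 at P6 (83.2 and 84.1 against 69.2 and 74.4 CPM, adjusted p = 0.0342) and 0.00 ± 0.0662 at P8. The P6 call of Rpl7l1 was lost without P6 WT replicate 1 (adjusted p = 0.0946), P6 WT replicate 2 (0.112) or P6 cKO replicate 1 (0.174). Rpl10, whose partner Rpl10l was not analysed here, was at -0.26 ± 0.0653 at P6 (adjusted p = 0.015), a call lost without P6 WT replicate 1 (0.0654) or P6 cKO replicate 2 (0.082). The pseudogene-type genes Rps3a2 and Rps3a3 were at -0.09 and -0.01 at P6, and in WT they rose from P6 to P8 by 0.66 ± 0.165 and 0.88 ± 0.134 (adjusted p = 0.0113 and 0.000579).

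Several properties that the choice of genes did not use were set beside the P6 difference, as descriptions. Over the 77 core genes, Spearman's correlation of the log2 fold change at P6 with transcript length was -0.153, with GC content -0.017 and with mean level -0.175; the genes share the same 4 libraries. Of 24 core genes with an annotated small nucleolar RNA gene inside them, 21 fell at P6, with a median of -0.38, and of the 53 others 38 fell, with a median of -0.33. Of 31 core genes that overlap no other annotated gene, 24 fell, with a median of -0.33. Genes outside the set with a transcript under 1000 bases had medians of 0.00, 0.02 and 0.00 at P1, P6 and P8 (3396 genes). Rows named as ribosomal protein pseudogenes with the mark -ps took 0.121% to 0.187% of library counts, or 8.24% to 9.0% of the counts of the 86 genes.

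Other genes of ribosome production and translation were read from the same fit, and their counts stand beside the shares of all genes tested that are given above for each time point (12.6% lower and 13.2% higher at P6, 14.8% and 19.5% at P8, 3.04% and 6.65% at P1). Other TOP mRNAs encode mainly elongation and initiation factors. Of 16 tested, 13 were lower and 0 higher at P6 (median -0.27; 0 higher also at an unadjusted p below 0.05 and by DESeq2), 5 lower and 1 higher at P8 (median -0.10), and 0 lower and 1 higher at P1 (median -0.05; 2 lower at an unadjusted p below 0.05 and 2 by DESeq2). Eef1b2, a subunit of the exchange factor for eEF1A, was at 236 and 223 CPM in P6 WT and 156 and 140 in P6 cKO (-0.63 ± 0.101, adjusted p = 0.00147). Rack1, a 40S-bound scaffold that is unrelated to Rack7, was at 479 and 488 against 368 and 292 (-0.55 ± 0.149, adjusted p = 0.0295). Eef1d was higher at P1 (0.31, adjusted p = 0.0215). At P8, Hnrnpa1 and Eif3e were lower (-0.26 and -0.23) and Pabpc1 higher (0.15).

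Among ribosome biogenesis factors, the calls at P6 were near the share of all genes tested in the lower direction and below it in the higher. Of 49 tested, 6 were lower and 1 higher at P6 (median -0.11; 12.6% and 13.2% of all genes tested), among them Tcof1, a nucleolar factor for ribosomal RNA transcription (-0.42 ± 0.0943, adjusted p = 0.00883), and the methyltransferase gene Fbl (-0.33 ± 0.0987, adjusted p = 0.0326), while Las1l was higher (0.24, adjusted p = 0.0488). At P8, 16 were higher and 1 lower (median 0.18; 19.5% and 14.8% of all genes tested), led by Pno1 (0.55 ± 0.0738, adjusted p = 0.000218) and Rrp12 (0.50 ± 0.110, adjusted p = 0.00558), with Ltv1 lower (-0.34, adjusted p = 0.014). At P1, none of the 49 passed (median 0.06), with 6 higher and 1 lower at an unadjusted p below 0.05 and 3 and 1 by DESeq2. Of 15 RNA polymerase I genes, 1 was higher at P1 (Polr1a, 0.25, adjusted p = 0.031), none passed at P6 (1 higher and 2 lower at an unadjusted p below 0.05, 2 lower by DESeq2), and Polr1d was higher and Ubtf lower at P8 (0.65 and -0.29). Of 78 mitochondrial ribosomal protein genes, 2 were higher and 1 lower at P6 (median 0.00) and 7 higher and 0 lower at P8 (median 0.10; 2 lower at an unadjusted p below 0.05 and 2 by DESeq2). Mrpl33 and Mrps6 were the ones higher at P6 (0.79 and 0.89), and Mrpl14 the one lower (-0.69).

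Among 19 regulators from the mTOR and MYC pathways, which set the output of ribosomal protein genes and mRNAs, 1 was higher and 4 lower at P6, against 13.2% and 12.6% of all genes tested. Rictor, the defining subunit of mTOR complex 2, was at 462 and 426 CPM in P6 WT and 69.5 and 71.2 in P6 cKO (-2.66 ± 0.0504, adjusted p = 8.6e-10). In the other groups it was at 71.8 and 69.6 in WT and 101 and 96.7 in cKO at P1 (0.49, adjusted p = 0.000132), and at 342 and 350 in WT and 197 and 195 in cKO at P8 (-0.82, adjusted p = 5.98e-07). Mycn was at 7.12 and 7.11 in P6 WT and 1.80 and 1.52 in P6 cKO (-2.10 ± 0.271, adjusted p = 0.000279). Mtor, the kinase itself, was higher in P6 cKO (96.4 and 90.0 beside 80.8 and 70.0, 0.31 ± 0.0749, adjusted p = 0.0132). The S6 kinase gene Rps6kb1 and Eif4e were the others lower at P6 (-0.33 and -0.28, adjusted p = 0.0082 and 0.00571). At P8, 2 of the 19 were higher and 3 lower, against 19.5% and 14.8% of all genes tested. Eif4ebp1 and Larp1 were higher (0.38 and 0.24, adjusted p = 0.0084 and 0.00271). Mxd4 and Rps6kb1, beside Rictor, were lower (-0.86 and -0.29, adjusted p = 0.0216 and 0.0123). At P1, 2 were higher and 1 lower, against 6.65% and 3.04%. Whether these differences bear on the ribosomal protein genes was not tested.

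**Figure D5:**
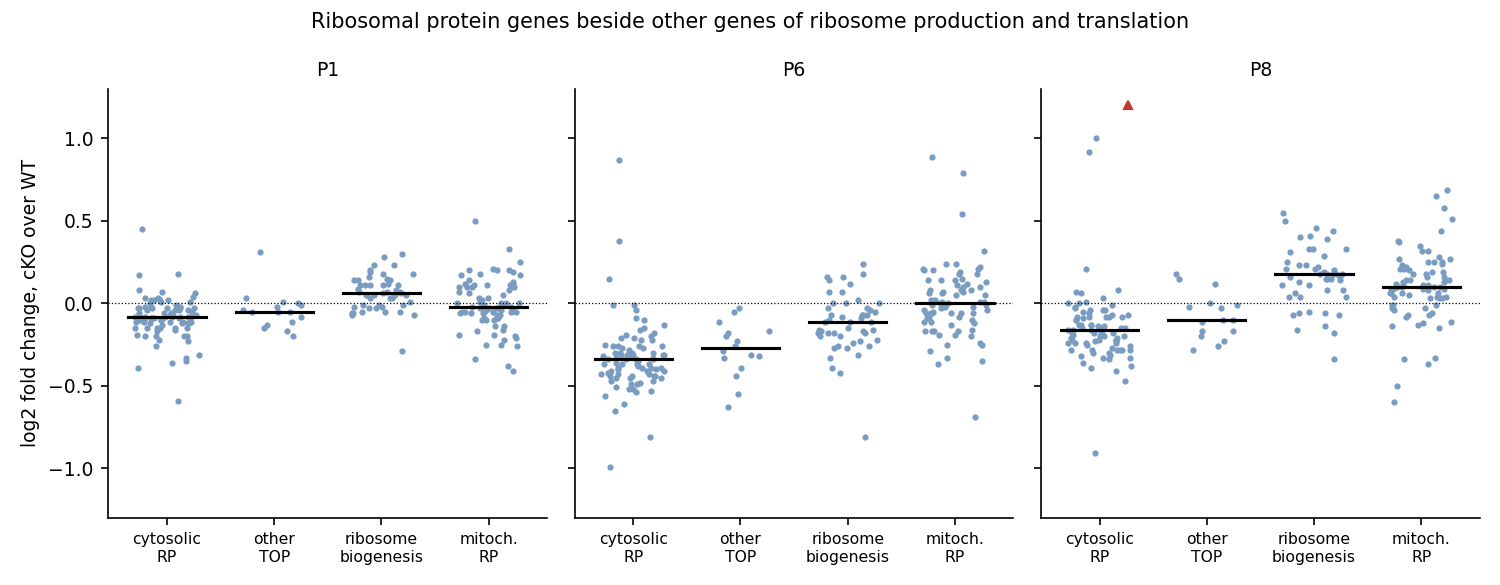
Log2 fold change, cKO over WT, of the 86 ribosomal protein genes, 16 other TOP genes, 49 ribosome biogenesis factors and 78 mitochondrial ribosomal protein genes at P1, P6 and P8, with a bar at each median. At P6 the medians are -0.34, -0.27, -0.11 and 0.00, and a triangle at the upper edge at P8 stands for Rpl39l at 2.58.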

How the data were processed

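Cultured astrocytes were sequenced by a commercial provider after mRNA capture. The authors aligned reads with HISAT2 to mm10, per the labels, and deposited raw counts per gene; the sources used here do not give the counting program, annotation release, strand setting or treatment of multiply mapping reads. Counts of all genes were fitted in edgeR 4.0.16 (R 4.3.3) with TMM normalization, filterByExpr and robust quasi-likelihood tests, with 1 mean for each of 6 groups over 12 libraries, and adjusted by Benjamini-Hochberg over 17938 genes. Genes were called at an adjusted p below 0.05 with no minimum fold. Levels are TMM-scaled CPM. On simulated counts (200 of 17779 genes changed, P8 comparison), 80.9% of 4-fold, 48.5% of 2-fold and 25.8% of 1.5-fold changes were recovered, with 7 false calls. Coordinates and transcript lengths are from GENCODE vM21 (GRCm38); start sequences are from RefSeq. The members and the gene lists were chosen with earlier results of these data known. Named genes were those called with a fold of 1.5 or more, the 3 highest and 3 lowest per time point, the 2 highest and 2 lowest per step and per change of the genotype difference, the 5 most abundant, and a fixed list of paralogs, stalk genes and others such as Rpl19; Rps13 was added after its values were seen, and 1 gene that met these rules is not reported here. In other lists the genes named were taken from the 2 highest and 2 lowest of those called at each time point, and not all of these are given. Alternatives were DESeq2 1.42.0, its size factors, library totals, no filter, a replicate block, removal of GC and length trends, the compared libraries alone, and each library left out. After the data were seen, addition of -ps reads to the parent gene and restriction to core genes were added.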

Additional observations from a re-analysis of the deposited data

Results flagged for a closer look

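Named genes whose genotype difference changed between time points, by the edgeR test of that change, are listed with the change in log2 fold change ± SE and the adjusted p. From P1 to P6 the 12 named genes all became more negative. The change was -0.67 ± 0.167 for the paralog gene Rpl22l1 (0.0228). Among 60S genes it was -0.57 ± 0.130 for Rpl28 (0.0153), -0.41 ± 0.0482 for Rpl4 (0.000268), -0.32 ± 0.0739 for Rpl19 (0.0143), -0.29 ± 0.0753 for Rpl3 (0.0276), -0.26 ± 0.0739 for Rpl35 (0.0414) and -0.18 ± 0.0468 for Rpl5 (0.0244). Among 40S genes it was -1.16 ± 0.300 for Rps20 (0.0400), -0.82 ± 0.117 for Rps27 (0.000965), -0.39 ± 0.0586 for Rpsa (0.00141), -0.33 ± 0.0520 for Rps3a1 (0.00190) and -0.23 ± 0.0660 for Rps6 (0.0442).

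From P6 to P8 the change was positive in 6 named genes: 0.54 ± 0.138 for Rps4l (0.0197), 0.34 ± 0.0586 for Rpsa (0.00233), 0.32 ± 0.0739 for Rpl19 (0.0117), 0.32 ± 0.102 for Rplp2 (0.0485), 0.26 ± 0.0482 for Rpl4 (0.00386) and 0.19 ± 0.0600 for Rps24 (0.0481). In Rps4l a positive difference grew, and in the other 5 a negative difference shrank. With 2 libraries in a group, no group was large enough for a test of outlying samples.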

How the results depend on the processing

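Of 293 recomputed values of the main results, 241 were rated as kept, 48 as moved and 4 as reversed. A kept count could still differ in size. At P8, where 29 genes were called, the counts of 43 with library totals and 43 with DESeq2 were rated as kept. Requiring a 1.5-fold change left 0, 4 and 2 genes in cKO against WT at P1, P6 and P8, 7 and 3 in the WT steps, and 1 and 10 in the cKO steps; the cut-off on unadjusted p and fold left 0, 4 and 3 (at P8 2 higher and 1 lower, which turns the balance), 7 and 3, and 2 and 10. At P1, where 2 genes were called, the count was 4 with library totals, 26 (median -0.16) with GC and length trends removed, 10 with DESeq2, 4 with the compared libraries alone and 1 with -ps reads added; the median was -0.11 with library totals. At P6 the median was -0.43 with GC and length trends removed. At P8, 52 genes (median -0.25) passed with those trends removed and 51 with the compared libraries alone, and the median was -0.22 with library totals and -0.18 with DESeq2, its size factors, the compared libraries alone or -ps reads added. The first cKO step gave 33 with library totals, 4 higher and 29 lower, turning its balance. The second change of the genotype difference gave 10 with the compared libraries alone. Rpl17 at P8 was -0.16 with -ps reads added. The cause of these shifts was not tested.

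Leaving out each library gave 1 to 6, 51 to 64 and 19 to 34 genes in cKO against WT at P1, P6 and P8, with medians of -0.09 to -0.08, -0.41 to -0.28 and -0.18 to -0.16, and differences in the share of counts of -0.13 to -0.0906, -0.514 to -0.384 and -0.321 to -0.298 percentage points. It gave 45 to 56 and 24 to 38 in the WT steps, 18 to 28 and 51 to 70 in the cKO steps (balance turned at 18 and 22), and 19 to 42 and 7 to 32 for the changes of the genotype difference. Same-numbered replicates did not deviate together over all genes tested (correlations from -0.063 to 0.044). The labels do not say whether same-numbered cultures were prepared together, and such correlations cannot exclude it. With the replicate number as a block, 2, 60 and 27 genes were called at P1, P6 and P8. With GC and length trends removed as well, the counts were 24, 68 and 52, with medians of -0.16, -0.43 and -0.25. The common biological coefficient of variation over all genes tested was 0.178, which limits the detection of changes under 1.5-fold in a gene of that spread. Smaller changes did pass in this set: of 62 genes called lower at P6, 4 were lower by 1.5-fold or more.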
